A study of Mus musculus with 16 samples.

Results

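The transcripts described here are 10 genes of zinc buffering and of the glucocorticoid response: the metallothioneins Mt1, Mt2 and Mt3, the zinc-sensing transcription factor Mtf1, the zinc exporter Slc30a1, the glucocorticoid receptor Nr3c1 and the glucocorticoid-responsive genes Fkbp5, Tsc22d3, Sgk1 and Zbtb16. They were picked by name, and all 10 were found among the 36528 gene identifiers of the files. Their transcripts were counted by poly(A) RNA sequencing in 16 libraries of whole mouse retina, taken 3 days after crush of the optic nerve, which injures the axons of retinal ganglion cells. The groups were crushed retina with GNE-3511 (crushed DLKi, n = 5), crushed retina with vehicle (n = 3), uncrushed retina with GNE-3511 (uncrushed DLKi, n = 5) and uncrushed retina with vehicle (n = 3). GNE-3511 inhibits DLK (dual leucine zipper kinase), through which axon damage is signalled to the nucleus, and was given at 75 mg/kg at 60 and 68 h after the injury, so that the first dose came 60 h into the response. A number of 5 mice per drug is stated, while strain, age and sex are not, nor which uncrushed retina belongs to which injured mouse. All groups come from whole retina of this cohort, in which fewer cells of a type and less RNA per cell cannot be told apart.

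Metallothioneins are small cysteine-rich proteins that bind zinc and copper. In mammals Mt1 and Mt2 are transcribed in many tissues, in the retina mainly in glia, when the zinc finger factor Mtf1 senses free zinc and binds metal response elements, and glucocorticoids, cytokines acting through STAT3 and oxidative stress raise them as well; Mt3 is the form typical of the nervous system and responds less to metals. Glucocorticoids act through the receptor Nr3c1, which is held in the cytoplasm by chaperones and on binding the hormone activates genes such as Fkbp5, a co-chaperone that dampens the receptor, Tsc22d3 (GILZ), an anti-inflammatory leucine zipper protein, the kinase Sgk1 and the zinc finger repressor Zbtb16.

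The libraries held 22.4 to 44.7 M counted reads, and each of the 10 genes had at least 147 reads in every library. Rhodopsin took 3.08% to 4.29% of the counts, and the summed level of 10 rod markers was 16462 to 17225 nRPKM in crushed DLKi, 14580 to 16985 in crushed vehicle, 16243 to 18952 in uncrushed DLKi and 15294 to 17769 in uncrushed vehicle retinas, so that the defining markers of retina were present in every library. Of 12 ganglion cell markers, 9 fell with crush under DLKi and 7 under vehicle, where 2.04% and 0.861% of all tested genes fell. Uncrushed vehicle replicate 1 (22.4 M reads, 4.54% mitochondrial counts) and crushed vehicle replicate 3 (25.4 M reads) were the shallowest, and the 3 libraries with the most lens marker RNA, uncrushed DLKi replicates 3 and 5 and uncrushed vehicle replicate 2, were all uncrushed. Results that these libraries move are given with and without them.

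Levels are given in nRPKM, the authors' RPKM (reads per kilobase of gene model, scaled to library depth) adjusted by a size factor, which corrects for length. Averaged over the 16 libraries, the level was 104.9 nRPKM for Mt1, 69.3 for Mt2, 67.2 for Sgk1, 30.0 for Mt3, 9.06 for Fkbp5, 9.0 for Nr3c1, 8.03 for Slc30a1, 6.68 for Mtf1, 3.26 for Tsc22d3 and 0.854 for Zbtb16. The spread of single libraries put no order between Mt2 and Sgk1, which ran from 28.8 to 145.2 and from 57.7 to 90.8 nRPKM, nor among Fkbp5, Nr3c1 and Slc30a1, whose ranges overlapped. Slc30a1 and Mtf1 also overlapped, at 6.90 to 9.13 and 6.23 to 7.37 nRPKM, whereas Tsc22d3 stayed at or below 4.13 and Zbtb16 at or below 1.17 nRPKM. The order of Tsc22d3 and Fkbp5 rests on the gene model, since their reads over the 16 libraries totalled 22136 and 22448. By gene-model length, 97.3% of tested genes were shorter than Tsc22d3 and 64% shorter than Fkbp5. Their exons annotated by GENCODE cover 4341 and 9468 bases, which is the opposite order. Mt4, the metallothionein of stratified epithelia, was listed at 0 in every library.

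The sequence before the start is shown for the metallothioneins Mt1, Mt2 and Mt3 and for the zinc exporter Slc30a1. Each run is the 250 bases before the start tabled by RefSeq (GRCm38.p6), and capitals mark the letters of the metal response element, searched as TGCACNC and TGCGCNC on both strands. For Mt1 and Slc30a1 the window reaches past the start of the RefSeq gene span (94178883 on chromosome 8 and 191906697 on chromosome 1).
Mt1, chr8:94178839-94179088, plus strand: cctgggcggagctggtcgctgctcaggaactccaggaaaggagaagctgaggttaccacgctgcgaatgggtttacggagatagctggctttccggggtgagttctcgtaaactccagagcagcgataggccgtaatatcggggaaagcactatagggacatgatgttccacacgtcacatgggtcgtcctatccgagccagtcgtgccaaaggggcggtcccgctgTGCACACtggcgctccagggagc
Mt2, chr8:94172368-94172617, plus strand: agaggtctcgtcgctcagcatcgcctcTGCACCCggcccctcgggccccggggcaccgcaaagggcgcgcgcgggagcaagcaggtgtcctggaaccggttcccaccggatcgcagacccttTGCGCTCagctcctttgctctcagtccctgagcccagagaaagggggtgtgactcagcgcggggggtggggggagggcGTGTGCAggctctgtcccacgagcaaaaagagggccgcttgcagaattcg
Mt3, chr8:94152357-94152606, plus strand: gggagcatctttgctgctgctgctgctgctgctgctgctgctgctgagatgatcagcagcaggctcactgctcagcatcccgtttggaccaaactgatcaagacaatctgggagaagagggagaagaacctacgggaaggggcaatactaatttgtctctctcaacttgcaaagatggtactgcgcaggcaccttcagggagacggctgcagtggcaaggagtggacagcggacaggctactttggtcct
Slc30a1, chr1:191906531-191906780, plus strand: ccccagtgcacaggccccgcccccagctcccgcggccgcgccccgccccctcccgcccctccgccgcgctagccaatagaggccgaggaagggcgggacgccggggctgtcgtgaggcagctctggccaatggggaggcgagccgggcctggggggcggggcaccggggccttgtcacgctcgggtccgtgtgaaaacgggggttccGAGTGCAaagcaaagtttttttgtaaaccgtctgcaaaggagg
The Mt2 window held 3 matches, the Mt1 and Slc30a1 windows 1 each and the Mt3 window 0. Among 32851 mouse promoter windows of the same length, 21.4% held at least 1 match and 1.26% held 3 or more. The Mt1 window also held 1 match to the palindromic glucocorticoid response letters GNACANNNTGTNC, which 0.387% of windows hold, and the Mt2 and Slc30a1 windows held 1 match each to the antioxidant response letters TGACNNNGC, which 10.2% of windows hold. No window of these 4 genes held the STAT letters TTCNNNGAA, which 7.02% of windows hold. Of the other windows searched, 1 of 6 at Sgk1 held the glucocorticoid letters, and 1 of 6 at Sgk1 and 1 of 3 at Tsc22d3 held the STAT letters. The windows of Fkbp5 and Mtf1 held no match to any of the 4 searches. No window of Nr3c1 or Zbtb16 was searched. A match describes letters only, and its absence from 250 bases says nothing about binding elsewhere.

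The same letters also occurred in the first bases of the annotated transcripts. These sites are shown because Mt3, with no match in its window, has matches there. RefSeq and GENCODE starts differ: base 13 of the Mt2 transcript lies at 94172676, while the RefSeq span begins at 94172618. Which start is used in the retina was not tested, so a site listed here may lie before it. Each line gives a match in capitals with 4 bases on either side, from the first 180 bases of the GENCODE transcripts (GRCm38).
Mt1, chr8:94179087-94179101, plus strand: gctcTGCACTCcgcc
Mt1, chr8:94179105-94179119, plus strand: aaagTGCGCTCggct
Mt1, chr8:94179169-94179183, plus strand: tgctGGGTGCAaacc
Mt1, chr8:94179183-94179197, plus strand: ccttTGCGCCCggac
Mt2, chr8:94172672-94172686, plus strand: gggcGTGTGCAggcg
Mt2, chr8:94172691-94172705, plus strand: gggcGCGTGCAtggt
Mt2, chr8:94172725-94172739, plus strand: ctttTGCGCTCgacc
Mt3, chr8:94152630-94152644, plus strand: gcagTGCACACacac
Mt3, chr8:94152657-94152671, plus strand: ctgtGCGTGCAtagg
Mt3, chr8:94152689-94152703, plus strand: tgctTGCGCGCcccc
Slc30a1, chr1:191906807-191906821, plus strand: ggccGAGCGCAgtcg
Mt1 held 4 matches in this stretch, Mt2 and Mt3 held 3 each and Slc30a1 held 1. Over 134930 transcripts, 15% held at least 1 match in their first 180 bases, 0.362% held 3 or more and 0.0593% held 4 or more. Whether matches before or after a start bear on the changes with crush was not tested.

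In the main fit (all 16 libraries, a mean per group, no pairing), crush raised the metallothioneins Mt1 and Mt2 in mice given DLKi. It raised Mt2 in mice given vehicle, and left no call on the other members. Mt2 (Entrez 17750, chromosome 8, 94172618 to 94173567) was measured at 124.3, 145.2, 82.1, 64.7 and 80.1 nRPKM in crushed DLKi and at 52.3, 28.8, 51.5, 44.8 and 45.9 nRPKM in uncrushed DLKi retinas. Every crushed DLKi retina lay above every uncrushed DLKi retina. The share of all tested genes whose groups do not overlap was not counted, so here and below such separation only describes the values. The group means were 99.3 ± 33.9 and 44.7 ± 9.44 nRPKM (SD, n = 5 each), and the log2 change was 1.16 ± 0.21 (SE), with an adjusted p of 0.00187 by edgeR's quasi-likelihood test with Benjamini-Hochberg adjustment over all genes. With vehicle, Mt2 was measured at 77.2, 92.0 and 94.1 nRPKM in crushed and at 52.9, 32.1 and 40.3 nRPKM in uncrushed retinas. These groups did not overlap either, with means of 87.7 ± 9.20 and 41.8 ± 10.5 nRPKM (SD, n = 3 each) and a log2 change of 1.08 ± 0.27 (edgeR adjusted p = 0.0380). This vehicle call rested on few retinas: leaving out any of the crushed vehicle retinas 1 (0.0705), 2 (0.107) and 3 (0.104), the uncrushed vehicle retinas 2 (0.210) and 3 (0.128) or uncrushed DLKi replicate 4 (0.0542) ended it, and it was also absent without the shallow pair (0.0721) and without the 3 lens-rich libraries (0.252), values being adjusted p. The size of the change stayed at 0.91 to 1.28 on the log2 scale across these and all other alternatives.

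Mt1 (Entrez 17748, chromosome 8, 94178883 to 94180327) was measured at 162.3, 187.7, 120.4, 90.2 and 116.9 nRPKM in crushed DLKi and at 90.4, 55.3, 91.4, 76.3 and 81.1 nRPKM in uncrushed DLKi retinas. Crushed DLKi replicate 4 fell below the highest uncrushed DLKi retinas and the other 4 lay above all of them. The means were 135.5 ± 39.0 and 78.9 ± 14.6 nRPKM (SD, n = 5 each), and Mt1 rose by 0.78 ± 0.17 on the log2 scale (edgeR adjusted p = 0.0103). With vehicle, Mt1 was measured at 110.0, 138.5 and 136.9 nRPKM in crushed and at 89.1, 64.1 and 67.1 nRPKM in uncrushed retinas, groups that did not overlap. The means were 128.5 ± 15.98 and 73.5 ± 13.7 nRPKM (SD, n = 3 each) and the log2 change was 0.81 ± 0.23, but the edgeR adjusted p of 0.0729 missed the threshold of 0.05. It passed without a low-count filter (0.0402), with DESeq2 (0.0113) and with only the 2 groups fitted (0.0339), and over all alternatives ran from 0.000114 to 0.331.

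**Figure D1:**
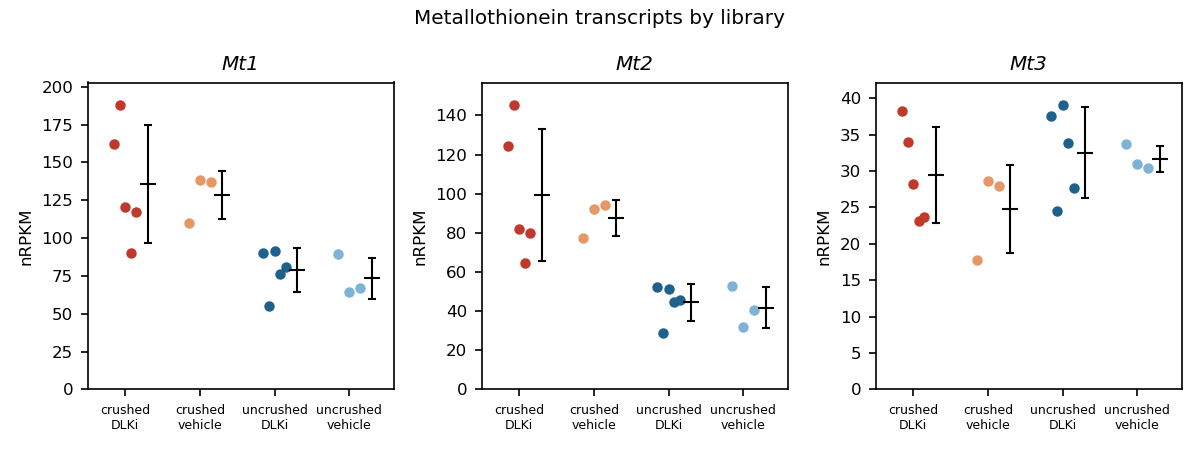
Levels of Mt1, Mt2 and Mt3 in nRPKM (linear axis from 0), 1 point per library, with the group mean and SD as a bar beside the points. Mt2 lies between 64.7 and 145.2 nRPKM in the 8 crushed retinas and between 28.8 and 52.9 in the 8 uncrushed ones, whereas the Mt3 groups overlap.

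Mt3 (Entrez 17751, chromosome 8, 94152607 to 94154148) lies in the same gene cluster. It was measured at 38.2, 34.0, 28.2, 23.2 and 23.6 nRPKM in crushed DLKi and at 37.6, 24.6, 39.0, 33.9 and 27.6 nRPKM in uncrushed DLKi retinas. With vehicle it was at 17.8, 28.6 and 28.0 nRPKM in crushed and at 33.7, 30.9 and 30.4 nRPKM in uncrushed retinas. The DLKi groups overlapped throughout, and the 3 crushed vehicle retinas lay below the 3 uncrushed ones. The log2 change was -0.14 ± 0.16 with DLKi (edgeR adjusted p = 0.831) and -0.35 ± 0.21 with vehicle (edgeR adjusted p = 0.693).

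Mtf1 and Slc30a1 are the sensor and a known target of the zinc response. Mtf1 averaged 6.86 ± 0.361 nRPKM in crushed DLKi (n = 5), 6.43 ± 0.257 in crushed vehicle (n = 3), 6.74 ± 0.204 in uncrushed DLKi (n = 5) and 6.53 ± 0.146 nRPKM in uncrushed vehicle retinas (SD, n = 3). It had the smallest spread of the 10 genes, and its log2 change with crush was 0.03 ± 0.05 with DLKi and -0.02 ± 0.06 with vehicle, intervals of -0.07 to 0.12 and -0.15 to 0.10. Slc30a1 was measured at 7.70 to 8.72 nRPKM (median 8.38) in crushed DLKi, at 9.13, 8.13 and 7.62 in crushed vehicle, at 7.66 to 8.63 (median 7.81) in uncrushed DLKi and at 6.90, 7.58 and 7.68 nRPKM in uncrushed vehicle retinas. The crushed and uncrushed ranges overlapped with either drug. The log2 change of Slc30a1 was 0.06 ± 0.06 with DLKi (edgeR adjusted p = 0.813) and 0.17 ± 0.08 with vehicle (edgeR adjusted p = 0.445).

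The calls among the 10 genes were thus 2 of 10 higher and 0 lower with crush under DLKi, where 3.29% of 19391 tested genes were called higher, 2.04% lower and 5.33% in either direction. With crush under vehicle 1 of 10 was called, and 1.77% of the tested genes were called higher, 0.861% lower and 2.63% in either direction. The median log2 change of the 10 genes was 0.02 with DLKi and -0.01 with vehicle, against -0.0012 and -0.0028 over all tested genes.

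The glucocorticoid-responsive genes showed no call with crush in the main fit. Fkbp5 was measured at 10.3, 9.32, 9.82, 8.32 and 9.52 nRPKM in crushed DLKi, at 7.71, 10.2 and 7.95 in crushed vehicle, at 10.3, 8.71, 8.73, 9.73 and 9.70 in uncrushed DLKi and at 7.41, 6.99 and 10.3 nRPKM in uncrushed vehicle retinas. Its groups overlapped, and a single high retina in either vehicle group set their spread. These were crushed vehicle replicate 2 and uncrushed vehicle replicate 3, whose SAM numbers in the titles stand apart from the others. The log2 change was 0.0055 ± 0.10 with DLKi (95% interval -0.21 to 0.22) and 0.06 ± 0.13 with vehicle (-0.21 to 0.34), and its sign turned in some alternatives.

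Tsc22d3 was measured at 3.08, 3.02, 3.30, 2.51 and 3.00 nRPKM in crushed DLKi and at 3.96, 3.32, 4.13, 3.69 and 3.33 nRPKM in uncrushed DLKi retinas. These groups did not overlap, although the gap between the highest crushed and the lowest uncrushed retina was small. The means were 2.98 ± 0.289 and 3.69 ± 0.364 nRPKM (SD, n = 5 each) and the log2 change was -0.30 ± 0.10. Its edgeR adjusted p of 0.115 missed the threshold and became 0.0419 when only the 2 groups were fitted. With neighbouring library numbers as a replicate block, a pairing that no label gives, it became 0.000616. With vehicle the values were 2.41, 3.43 and 2.72 nRPKM in crushed and 3.08, 3.16 and 4.03 nRPKM in uncrushed retinas, which overlapped. That log2 change was -0.26 ± 0.13 (edgeR adjusted p = 0.546), of the same sign and with an interval of -0.54 to 0.02. With the same block its edgeR adjusted p was 0.0180.

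Zbtb16 was the least abundant, at 0.848 ± 0.0957 nRPKM in crushed DLKi and 0.940 ± 0.170 in uncrushed DLKi retinas (SD, n = 5 each), and at 0.729 ± 0.182 in crushed vehicle and 0.849 ± 0.240 nRPKM in uncrushed vehicle retinas (SD, n = 3 each). The groups overlapped, and the log2 change with crush was -0.14 ± 0.16 with DLKi and -0.22 ± 0.21 with vehicle (edgeR adjusted p = 0.825 and 0.902). The receptor itself, Nr3c1, averaged 8.81 ± 0.427 nRPKM in crushed DLKi and 8.33 ± 0.843 in uncrushed DLKi retinas (SD, n = 5 each), and 9.75 ± 0.493 in crushed vehicle and 9.69 ± 0.623 nRPKM in uncrushed vehicle retinas (SD, n = 3 each). Its log2 change with crush was 0.08 ± 0.07 with DLKi (interval -0.05 to 0.22) and 0.01 ± 0.08 with vehicle (interval -0.17 to 0.19).

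Sgk1, a kinase that regulates ion channels and transporters and is switched on by glucocorticoids and by osmotic and growth factor signals, was the only member called with the drug. In uncrushed retinas it was measured at 65.0, 68.6, 58.8, 66.2 and 57.7 nRPKM with DLKi and at 90.8, 74.8 and 78.6 nRPKM with vehicle. The highest DLKi retina lay below the lowest vehicle retina. The means were 63.2 ± 4.77 (SD, n = 5) and 81.4 ± 8.36 nRPKM (SD, n = 3), and Sgk1 fell by 0.37 on the log2 scale (SE 0.07, edgeR adjusted p = 0.0332). The call was 1 of 10 members in a comparison in which 0.366% of tested genes were lower and 0.629% were called in either direction. It was fragile: the adjusted p was 0.203 with only the 2 groups fitted, 0.137 without the shallow pair, 0.151 without the 3 lens-rich libraries, and 0.0517 to 0.193 on leaving out crushed DLKi retina 1, any of the uncrushed DLKi retinas 1, 3 and 4, or any uncrushed vehicle retina. Without uncrushed vehicle replicate 1, the highest library, the log2 change was -0.28, and it stayed between -0.28 and -0.43 over all alternatives. The summed level of 10 retinal pigment epithelium markers ran from 44.4 to 206 nRPKM in uncrushed DLKi and from 70.5 to 366 nRPKM in uncrushed vehicle retinas, highest in that same vehicle replicate 1, with 0 of 10 markers called and 10 of 10 lower with DLKi. None of these 10 markers was at 0, and their part in the Sgk1 difference was not tested.

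In crushed retinas Sgk1 was measured at 59.9, 60.6, 60.3, 62.4 and 60.5 nRPKM with DLKi and at 64.5, 70.4 and 75.7 nRPKM with vehicle. Here too the groups did not overlap, a separation whose share over all tested genes was not counted. The 5 DLKi retinas lay within a span of a few nRPKM. The means were 60.7 ± 0.973 (SD, n = 5) and 70.2 ± 5.59 nRPKM (SD, n = 3) and the log2 difference was -0.21 ± 0.07, with an edgeR adjusted p of 0.230 that missed the threshold; 0 of the 10 members were called by edgeR, DESeq2 or limma, where edgeR called 0.505% of all tested genes (0.376% lower). At an unadjusted p under 0.05 it was 1 of 10, Sgk1, against 13.7% of all tested genes. With crush itself the log2 change of Sgk1 was -0.06 ± 0.06 under DLKi (edgeR adjusted p = 0.835) and -0.21 ± 0.08 under vehicle (edgeR adjusted p = 0.300). With neighbouring library numbers as a replicate block, the edgeR adjusted p was 0.544 under DLKi and 0.0330 under vehicle.

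Nr3c1 had the next largest drug difference in uncrushed retinas by p. It was measured at 8.53, 9.61, 7.38, 8.30 and 7.82 nRPKM with DLKi and at 10.4, 9.27 and 9.40 nRPKM with vehicle. Uncrushed DLKi replicate 2 lay within the vehicle range and the other 4 below it. The log2 difference was -0.22 ± 0.07 in uncrushed (edgeR adjusted p = 0.164) and -0.15 ± 0.07 in crushed retinas (edgeR adjusted p = 0.403), where the range was 8.36 to 9.38 nRPKM with DLKi and 9.18 to 10.1 nRPKM with vehicle.

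The metallothioneins showed no call with the drug. Mt2 differed by 0.18 ± 0.23 on the log2 scale in crushed (interval -0.32 to 0.67) and by 0.10 ± 0.24 in uncrushed retinas (interval -0.41 to 0.61). Mt1 differed by 0.08 ± 0.20 in crushed (interval -0.34 to 0.50) and by 0.10 ± 0.20 in uncrushed retinas (interval -0.32 to 0.53). For Mt3 the log2 differences were 0.25 ± 0.19 in crushed and 0.04 ± 0.19 in uncrushed retinas. Mtf1 differed by 0.09 ± 0.05 and 0.04 ± 0.05 and Slc30a1 by -0.0021 ± 0.07 and 0.11 ± 0.07, in crushed and in uncrushed retinas. Among the glucocorticoid-responsive genes, Fkbp5 differed by 0.13 ± 0.12 and 0.19 ± 0.12, Tsc22d3 by 0.06 ± 0.12 and 0.10 ± 0.12 and Zbtb16 by 0.22 ± 0.19 and 0.14 ± 0.19, again in crushed and in uncrushed retinas. Over both comparisons, 0.412 was the lowest edgeR adjusted p among these 8 genes.

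The difference between the crush effects, with DLKi minus with vehicle, was called for 0 of the 10 genes. All 10 had an edgeR adjusted p of 0.9998, and edgeR called 0.0103% of the tested genes. DESeq2 and limma on nRPKM also called 0 of the 10, and 0 of 10 had an unadjusted p under 0.05, against 1.54% of the tested genes. The difference was 0.08 ± 0.34 for Mt2 (95% interval -0.63 to 0.78) and -0.03 ± 0.28 for Mt1 (-0.63 to 0.57) on the log2 scale. For Mt3 it was 0.21 ± 0.27, for Mtf1 0.05 ± 0.07, for Slc30a1 -0.11 ± 0.10, for Fkbp5 -0.06 ± 0.17, for Tsc22d3 -0.04 ± 0.17, for Sgk1 0.16 ± 0.11, for Zbtb16 0.07 ± 0.27 and for Nr3c1 0.07 ± 0.11. A p that misses the threshold does not show a like response with both treatments.

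**Figure D2:**
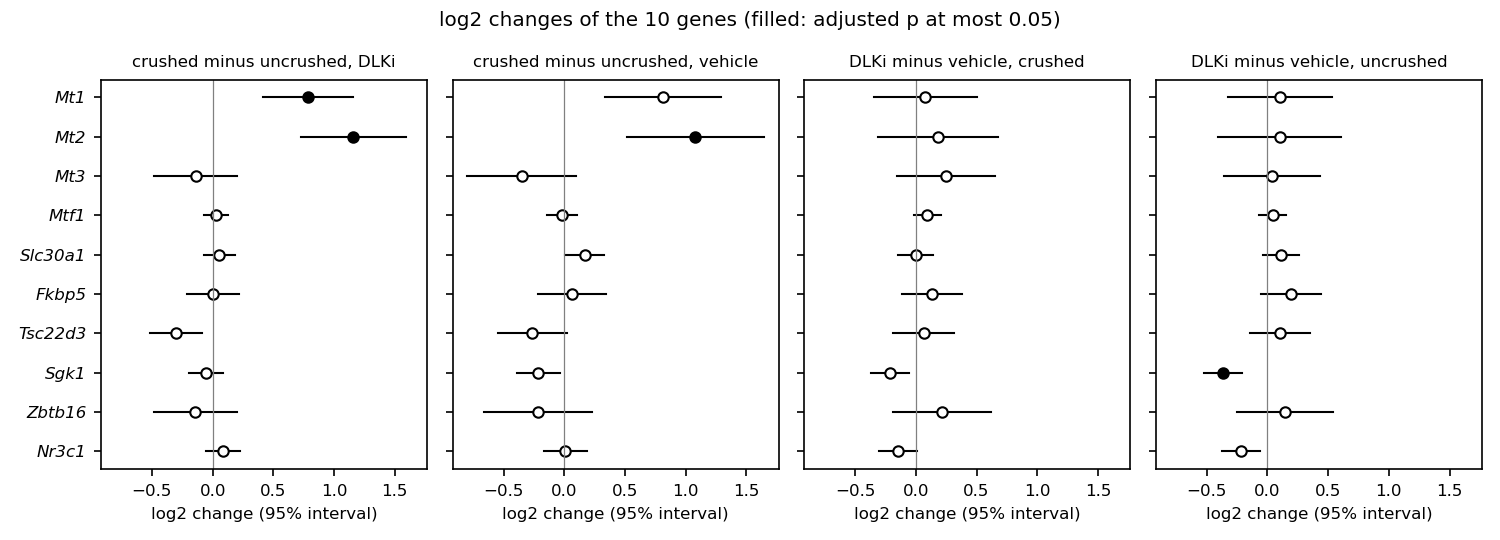
log2 changes of the 10 genes with their 95% intervals in 4 comparisons; filled points mark an edgeR adjusted p of at most 0.05. Mt1 and Mt2 are filled with crush under DLKi, Mt2 with crush under vehicle and Sgk1 for DLKi against vehicle in uncrushed retina.

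**Figure D3:**
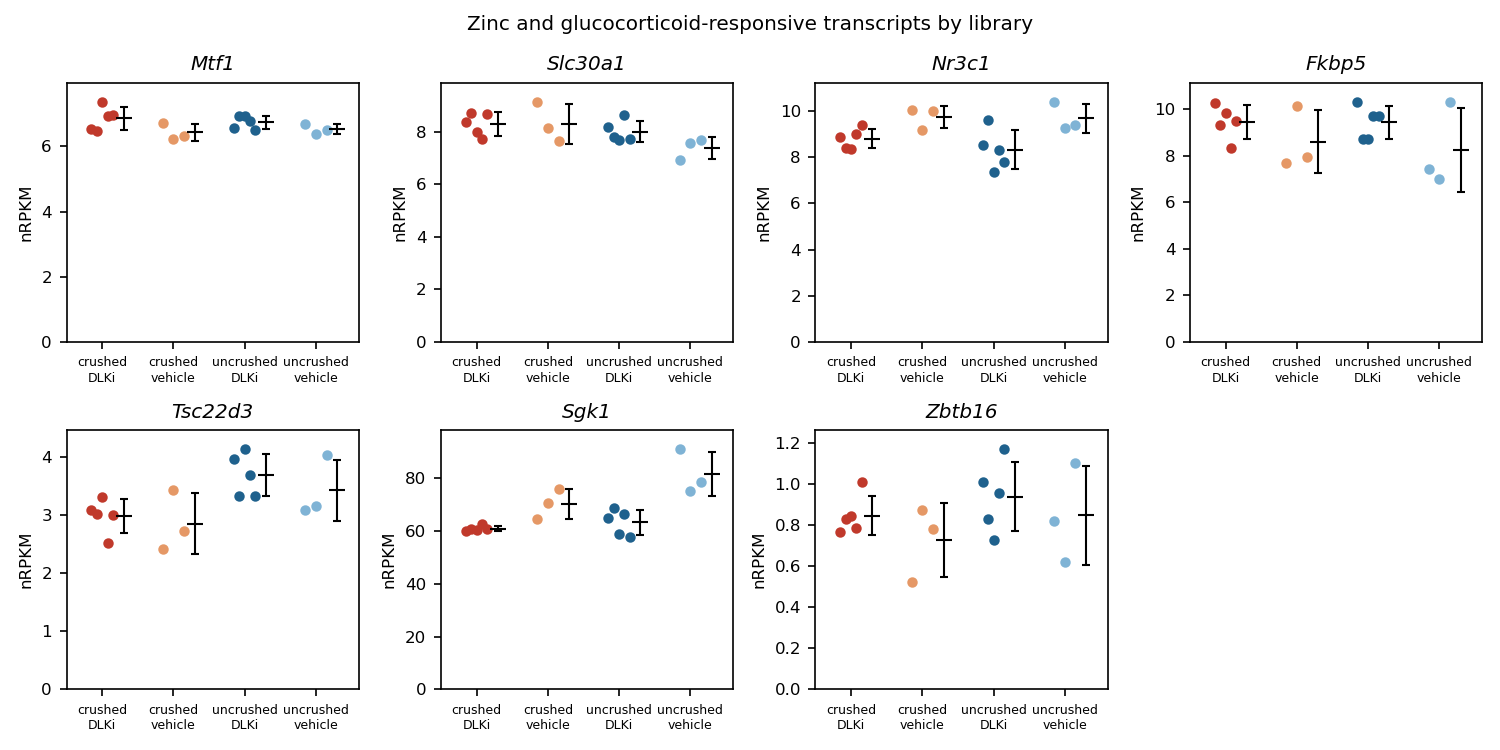
Levels of the other 7 genes in nRPKM (linear axes from 0), 1 point per library, with the group mean and SD beside the points. Sgk1 lies between 59.9 and 62.4 nRPKM in the 5 crushed DLKi retinas and between 74.8 and 90.8 in the 3 uncrushed vehicle retinas.

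Mt1 and Mt2 followed each other from retina to retina. After the group means were taken off, log2 CPM of Mt1 and Mt2 correlated over the 16 libraries with Pearson's r of 0.982 and Spearman's rho of 0.974 (permutation within groups, p = 2e-05 and 4e-05; adjusted p of 0.00016 for r over the 8 gene pairs examined). Without the 2 libraries farthest from the median r was 0.972. The glucocorticoid-responsive pair Fkbp5 and Tsc22d3 had r of 0.787 and rho of 0.771 (permutation p = 0.00715 and 0.00483, adjusted p = 0.0286 for r), and r of 0.637 without the 2 farthest libraries. Fkbp5 and Zbtb16 had r of 0.727 and rho of 0.685 (permutation p = 0.0209 and 0.02, adjusted p = 0.0557 for r), and Fkbp5 and Sgk1 r of -0.06 and rho of -0.01 (permutation p = 0.875 and 0.977). Mt2 was not shown to vary with the glucocorticoid-responsive genes, with r of 0.336 for Fkbp5, 0.399 for Tsc22d3 and 0.191 for Zbtb16 and rho of 0.353, 0.415 and 0.162 (permutation p of r = 0.215, 0.13 and 0.456, and of rho = 0.223, 0.131 and 0.553). The r of Mt2 with Stat3 was 0.265 and rho 0.0765 (permutation p = 0.483 and 0.808). Where retinas of 1 mouse are among the 16, fewer than 16 points are independent. Averaged over the 8 pairs of libraries with neighbouring numbers, which no label ties to a mouse, r was 0.995 for Mt1 and Mt2 (exact permutation p = 0.00139, adjusted p = 0.0111) and 0.864 for Fkbp5 and Tsc22d3 (exact permutation p = 0.0361, adjusted p = 0.144), so that the call on Fkbp5 and Tsc22d3 was lost.

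The spread of the metallothioneins within groups moved with the ribosomal protein transcripts of the library. The mean log2 CPM of 79 ribosomal protein genes, taken as deviations from the group means, correlated with Mt1 at r of 0.913 and rho of 0.894 (permutation p = 0.0001 and 0.00023, adjusted p = 0.001 for r over 10 relations). For Mt2 the values were r of 0.886 and rho of 0.903 (permutation p = 0.00042 and 0.00027, adjusted p = 0.0014 for r), and for Mt3 r of 0.805 and rho of 0.835 (permutation p = 0.00025 and 0.00017, adjusted p = 0.00125 for r). Without the 2 farthest libraries r was 0.855, 0.805 and 0.767 for Mt1, Mt2 and Mt3. The other 7 genes had r between -0.374 and 0.243 and permutation p of 0.191 or more. All 3 metallothionein transcripts are short, only 6.95%, 4.03% and 3.89% of tested genes being shorter than Mt1, Mt2 and Mt3. Whether length bears on these correlations was not tested. The score averaged 2.94 ± 0.143 in crushed DLKi, 2.81 ± 0.0893 in crushed vehicle, 2.93 ± 0.157 in uncrushed DLKi and 2.84 ± 0.162 log2 CPM in uncrushed vehicle retinas (SD). With the score as a covariate, an alternative chosen after the data were seen, the log2 change with crush was 1.12 for Mt2 and 0.76 for Mt1 under DLKi (edgeR adjusted p = 6.73e-06 and 2.05e-05) and 1.14 and 0.87 under vehicle (edgeR adjusted p = 0.000109 and 0.000114).

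**Figure D4:**
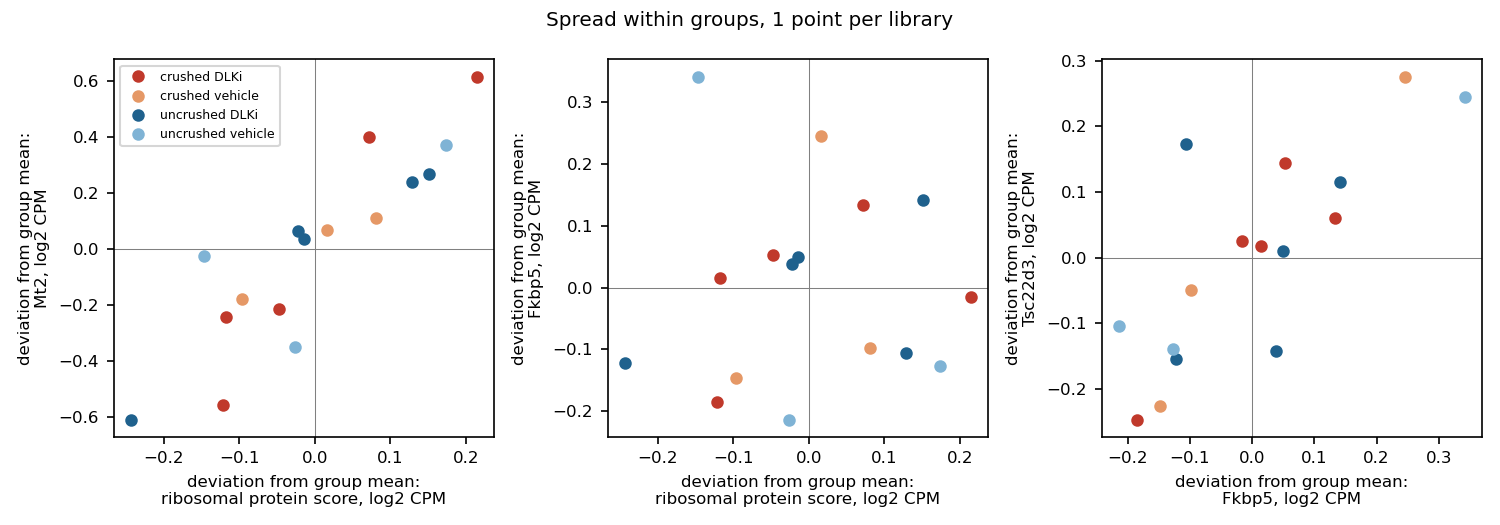
Deviations from the group mean in log2 CPM, 1 point per library: Mt2 against the ribosomal protein score (left), Fkbp5 against the same score (middle) and Tsc22d3 against Fkbp5 (right). The left panel has r of 0.886, the middle 0.0126 and the right 0.787.

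The genes whose pattern was most like that of Mt2 over the 16 libraries were Rhoc (r = 0.935), S100a6 (0.934), Ptp4a3 (0.933), Nudt6 (0.933) and Gap43 (0.929), below the r of 0.99 with Mt1. After the group means were taken off they included the translation genes Eef1a1 (0.926), Rpl7 (0.923), Rpl13a (0.922) and Rpl4 (0.919). On that measure the member Mt3 also followed Mt2, with r of 0.796. For Fkbp5 the likest genes over the 16 libraries included Zkscan4 (0.916), Ddx59 (0.855), Serpine2 (0.854) and BC052040 (0.837). These r values are descriptions over libraries that share groups and depth.

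Of 22 measured zinc transporters of the Slc30a and Slc39a families, 1 rose and 0 fell with crush under DLKi and 0 were called under vehicle, with median log2 changes of 0.02 and 0.04. The zinc importer Slc39a1 was the call, at 9.38 ± 1.39 nRPKM in crushed DLKi and 7.23 ± 0.548 nRPKM in uncrushed DLKi retinas (SD, n = 5 each), and the log2 change was 0.38 ± 0.10 (edgeR adjusted p = 0.0338). Of 12 measured copper and iron genes, 1 rose with crush under DLKi and 0 were called under vehicle. Of all tested genes, 3.29% rose under DLKi and 1.77% under vehicle, so that a single call in lists of this size is no result about either list. The call among the copper and iron genes was Cp, the copper-carrying ferroxidase ceruloplasmin, at 40.8 ± 6.36 nRPKM in crushed DLKi and 29.6 ± 4.88 nRPKM in uncrushed DLKi retinas (SD, n = 5 each), and the log2 change was 0.47 ± 0.11 (edgeR adjusted p = 0.0184).

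Among 24 further genes known as glucocorticoid targets, 5 rose and 0 fell with crush under DLKi, and 4 rose and 0 fell under vehicle, with median log2 changes of 0.08 and 0.03, where 3.29% and 1.77% of all tested genes rose. Under DLKi the 4 of these with the smallest p were Cdkn1a, the cell cycle inhibitor p21 that p53 also drives, with a log2 change of 1.21 ± 0.12, Cebpd, a transcription factor also induced by STAT3, with 1.66 ± 0.20, the repressor Bcl6 with 0.47 ± 0.08 and the kinase Map3k6 with 0.68 ± 0.16. Under vehicle Cdkn1a changed by 1.87 ± 0.16, Cebpd by 1.55 ± 0.25, Bcl6 by 0.52 ± 0.10 and the transglutaminase Tgm2 by 0.61 ± 0.16. Only Cdkn1a of this list was called with the drug: it averaged 5.17 ± 0.586 nRPKM in crushed DLKi (n = 5) and 8.24 ± 0.554 nRPKM in crushed vehicle retinas (SD, n = 3), a log2 difference of -0.67 ± 0.13 (edgeR adjusted p = 0.0287). Of 13 genes of receptor function (chaperones, coactivators, steroid dehydrogenases) and of 8 genes of the Sgk1 pathway, 0 were called by edgeR in any of the 5 comparisons. At an unadjusted p under 0.05, 0 of either list passed with crush, where 14.4% of all tested genes passed under DLKi and 10.4% under vehicle. For DLKi against vehicle 0 of 13 and 1 of 8 passed in crushed retinas, where 13.7% of all tested genes did, and 2 of 13 and 1 of 8 in uncrushed retinas, where 17.3% did; for the difference of crush effects 0 of either list passed, against 1.54%. Their median log2 changes with crush were -0.01 and 0.01 under DLKi and 0.01 and 0.0024 under vehicle.

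Some genes of cytokine and oxidative stress signalling were called, and whether they bear on the metallothionein changes with crush was not tested. Of 13 measured gp130 and STAT3 genes, 9 rose with crush under DLKi and 8 under vehicle, 0 fell, and the median log2 changes were 1.16 and 1.12. Over all tested genes, 3.29% rose with crush under DLKi and 1.77% under vehicle. Stat3 itself averaged 29.3 ± 4.11 nRPKM in crushed DLKi and 13.2 ± 0.643 nRPKM in uncrushed DLKi retinas (SD, n = 5 each), and the log2 change was 1.16 ± 0.08 (edgeR adjusted p = 1.79e-07), and 30.7 ± 2.81 in crushed vehicle and 14.1 ± 1.11 nRPKM in uncrushed vehicle retinas (SD, n = 3 each), and the log2 change was 1.12 ± 0.11 (edgeR adjusted p = 7.74e-06). The receptor subunit Osmr rose by 1.53 ± 0.17 under DLKi and 1.19 ± 0.21 under vehicle, the cytokine Lif by 2.07 ± 0.26 and 2.02 ± 0.32, and Bcl3 by 2.75 ± 0.31 and 2.30 ± 0.38. Of 10 antioxidant genes driven by NRF2, 2 rose with crush under either drug and 0 fell, with median log2 changes of 0.07 and 0.03. These were Hmox1, heme oxygenase, with log2 changes of 0.92 ± 0.12 under DLKi and 1.30 ± 0.16 under vehicle, and the sulfiredoxin Srxn1, with 0.70 ± 0.08 and 1.07 ± 0.10.

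Markers of astrocytes and gliosis, taken as 1 list, and of microglia rose with crush too. For all tested genes the shares called were 3.29% higher and 2.04% lower under DLKi, and 1.77% higher and 0.861% lower under vehicle. Of 6 markers of astrocytes and gliosis, 3 rose under DLKi and 2 under vehicle. Their summed level was 28.1 to 60.5 nRPKM in crushed DLKi against 16.3 to 25.0 in uncrushed DLKi retinas. With vehicle it was 39.4 to 47.9 nRPKM in crushed against 17.8 to 19.9 in uncrushed retinas. Of 12 microglia markers 10 rose under DLKi and 6 under vehicle, with sums of 34.2 to 70.5 in crushed DLKi against 20.04 to 31.7 in uncrushed DLKi retinas, and 46.3 to 58.5 in crushed vehicle against 26.2 to 28.5 nRPKM in uncrushed vehicle retinas. Of 12 Müller glia markers 2 rose under DLKi (Vim and Clu) and 1 under vehicle (Vim), with sums of 1965 to 2527 in crushed DLKi, 1991 to 2434 in crushed vehicle, 1976 to 2628 in uncrushed DLKi and 2005 to 2347 nRPKM in uncrushed vehicle retinas, which overlapped. Of 10 endothelial markers 0 were called with crush. The 12 lens markers were lower in crushed retinas, 9 of them called under DLKi and 0 under vehicle, with sums of 2.86 to 21.9 in crushed DLKi against 13.4 to 540 in uncrushed DLKi retinas, and 1.38 to 18.5 in crushed vehicle against 2.03 to 239 nRPKM in uncrushed vehicle retinas. None of the glial and microglial markers was at 0 in a library, while the lens markers Cryba1, Crybb2, Crygs and Lim2 were at 0 in at least 1 vehicle library; the part of these cells in the metallothionein changes was not tested.

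Reads of some members could belong to other transcripts. The kit does not mark strand, and 73.5% of the exon bases of Mt2 are overlapped on the opposite strand by the antisense gene Gm45774, so the Mt2 values cannot be told apart from reads of that gene. The overlap was 8.09% for Mtf1 and 8.92% for Slc30a1, and 0% for the other 7 members. Mt1 has no such overlap and shares 0% of its 50-base windows with another gene, while Mt2 shares 45.8% of them with 1 gene. Mt1 thus gives the metallothionein call with crush under DLKi without this limit. Under vehicle its edgeR adjusted p of 0.0729 missed the threshold, so the metallothionein call there is that of Mt2 and keeps the limit.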

How the data were processed

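Poly(A) RNA of 16 mouse retinas (0.5 µg per library) was sequenced as single reads of 50 bases with a kit that does not mark strand, per the labels' protocols. Per the submitters' processing notes, GSNAP aligned the reads to GRCm38; neither notes nor headers name its version. The authors deposited, per the file headers, the count of reads aligning uniquely to each gene model, and a size-factor-adjusted RPKM (nRPKM). Library totals were 22.4 to 44.7 M counts.

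From the counts, edgeR 4.0.16 in R 4.3.3 was fitted to all 16 libraries with a mean per group (TMM factors 0.973 to 1.02, filterByExpr leaving 19391 genes, quasi-likelihood F test, two-sided). Adjusted p are Benjamini-Hochberg over all tested genes, called at 0.05 or less; ± beside a log2 change is its SE. The fit recovered planted changes when tested on simulated data. nRPKM gives levels only. Correlations used 100000 permutations within groups; sequence letters were counted in RefSeq promoters and GENCODE transcripts of the same build. The p-values measure the spread between these retinas, whose separate animals the labels do not name; no 2 replicates were copies (chi-square per degree of freedom 6.73 to 42.8). No batch is labelled beyond the library and SAM numbers in the titles. The SAM numbers of crushed vehicle replicate 2 and uncrushed vehicle replicate 3 stand apart from the run of the others. Whether this marks a batch was not tested.

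All 10 members are reported in each comparison; from each gene list at most 4 called genes with the smallest p were named, and for Mt2 and Fkbp5 the 5 likest genes, of which some are not reported here. Members and lists were chosen with earlier results of these data known. For the agreement between neighbouring libraries, a planned adjustment over the members alone was replaced by one over all genes. Alternatives covered normalisation, filters, DESeq2 1.42.0, limma 3.58.1 on log2(nRPKM + 0.1), only the 2 groups compared, a replicate block, and libraries left out; 1 (the ribosomal protein score) was added after seeing the data.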

Additional observations from a re-analysis of the deposited data

Results flagged for a closer look

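Among 20 tests for a single distant library (10 genes in each group of 5), 1 library stood apart: Sgk1 in crushed DLKi replicate 4, at 62.4 nRPKM, was separated from the nearest of the other 4 by 0.738 of the group's range. Chance marks about 1 in 20 such groups, and the SD of this group was 0.973 nRPKM, so the gap is small beside the difference from crushed vehicle retinas. Its cause was not tested.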

How the results depend on the processing

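Each of the 50 member values (10 genes in 5 comparisons) was recomputed under 25 or 26 alternatives, 1270 values in all: 1168 kept their direction and side of the threshold, 18 were no longer called, 12 became called and 72 changed sign. Mt1 and Mt2 stayed called with crush under DLKi in all 26 (adjusted p up to 0.0367 and 0.0122). No value that was called changed sign, and the cause of a change was not tested. The number of genes called over the whole table moved as follows. DESeq2 called 418 (DLKi in crushed retina), 625 (DLKi in uncrushed retina) and 5 genes (difference of crush effects), against 98, 122 and 2. With only the 2 groups fitted, 281 genes were called with crush under vehicle, 45 for DLKi in crushed and 3 for DLKi in uncrushed retina, against 510, 98 and 122. Without the shallow pair, 53 genes were called for DLKi in crushed retina, 11 for DLKi in uncrushed retina and 1 for the difference. Without the 3 lens-rich libraries the calls were 263 with crush under vehicle, 620 with crush under DLKi (1034 with them), 7 for DLKi in uncrushed retina and 0 for the difference. With the ribosomal protein score as covariate, chosen after seeing the data, 53 were called for DLKi in crushed retina and 1 for the difference. Leaving out single libraries gave 276 (crushed vehicle replicate 1) to 506 calls with crush under vehicle, 748 to 1258 with crush under DLKi, 22 (crushed vehicle replicate 1) to 144 for DLKi in crushed retina, 17 (uncrushed vehicle replicate 2) to 205 (uncrushed DLKi replicate 5) for DLKi in uncrushed retina and 1 to 2 for the difference.

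Small log2 values that changed sign were, without the shallow pair, Mtf1 with crush under vehicle (0.0058) and the Mt2 difference (-0.066). Without the lens-rich libraries they were Fkbp5 (-0.049) and Nr3c1 (-0.027) with crush under vehicle, Fkbp5 with crush under DLKi (-0.011), Slc30a1 for DLKi in crushed retina (0.0013), Mt1 (-0.088), Mt2 (-0.16), Mt3 (-0.014) and Zbtb16 (-0.064) for DLKi in uncrushed retina, and the differences of Mt1 (0.17), Fkbp5 (0.038) and Tsc22d3 (0.041). With the score as covariate they were Mt1 (-0.22), Mt2 (-0.18) and Slc30a1 (0.0052) for DLKi in crushed retina, Mt1 (-0.11), Mt2 (-0.15) and Mt3 (-0.15) for DLKi in uncrushed retina, and the Mt2 difference (-0.024). Slc30a1 for DLKi in crushed retina was 0.0020 without a filter and 0.00050 by limma on nRPKM. Leaving out single libraries turned the sign within these ranges: with crush under vehicle, Fkbp5 -0.082 to 0.26, Zbtb16 -0.41 to 0.025 and Nr3c1 -0.027 to 0.065; with crush under DLKi, Fkbp5 -0.029 to 0.049; for DLKi in crushed retina, Mt1 -0.069 to 0.20, Slc30a1 -0.056 to 0.075 and Tsc22d3 -0.042 to 0.22; for DLKi in uncrushed retina, Mt2 -0.064 to 0.30, Mt3 -0.038 to 0.12 and Zbtb16 -0.047 to 0.38. For the difference they were Mt1 -0.19 to 0.10, Mt2 -0.12 to 0.25, Fkbp5 -0.25 to 0.088, Tsc22d3 -0.18 to 0.13 and Zbtb16 -0.17 to 0.27.

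Library numbers in the titles run odd for crushed and even for uncrushed retinas, giving 8 neighbouring pairs, but no label says that neighbours share a mouse. Deviations from the group means correlated between neighbours over all genes at r of 0.0448 to 0.438, above 0.1 in 7 of 8 pairs, and in 7 of 8 pairs both retinas correlated best with their own neighbour, a hint from the data and not the design. With that pairing as a replicate block, 1234 genes were called with crush under vehicle and 2080 under DLKi, and of the members also Mt1 (adjusted p = 0.00119), Tsc22d3 (0.0180) and Sgk1 (0.0330) under vehicle and Tsc22d3 under DLKi (0.000616).
Between neighbours, member deviations correlated at r of 0.153 (Mtf1) to 0.893 (Fkbp5), where the median over all tested genes was 0.44, 81.9% lay above 0 and 14.4% had an unadjusted p under 0.05. Fkbp5 had rho of 0.833 and Tsc22d3 r of 0.847 and rho of 0.905 over 8 pairs (exact permutation p of r = 0.0264 and 0.0125, of rho = 0.0333 and 0.00556), with r of 0.809 and 0.7 without the 2 farthest pairs; adjusted over all genes these were 0.301 and 0.274, and no gene passed. Mt1 and Mt2 were higher in the crushed retina in 8 of 8 neighbouring pairs, as were 6.37% of tested genes, and Tsc22d3 was lower in 8 of 8, as were 5.33%.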
